A study of Mus musculus with 6 samples.

Results

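The genes described here encode the proton pump of lysosomes and endosomes, known as the vacuolar ATPase or V-ATPase, and the ion exchangers and channels that work beside it in the same membranes. They were chosen by a rule on gene symbols that uses no measured value, though earlier results of these data were known when they were chosen. The pattern took the V1 and V0 subunit genes of the pump, its accessory proteins, the exchanger genes Clcn3 to Clcn7 with Ostm1, the channel genes of the mucolipin and TPC families, and Tmem175, Rnasek and Atp13a2, and it left out Atp6v0d2. It matched 35 of the 21604 gene symbols measured. Of these 35, 33 had enough reads to be tested, while Atp6v1c2 (6 counts over all libraries) and Atp6v1fnb (4 counts) did not. Atp6v1fnb is matched by its name, which marks it as the neighbour of Atp6v1f, and it is not a pump subunit.

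RNA was sequenced from RAW264.7, an established mouse line of macrophage-like cells that the labels describe as wild type, with bone marrow macrophage as the cell type. Lipopolysaccharide (LPS), the endotoxin of bacteria to which macrophages respond, was given to all 6 samples at 100 ng/mL for 24 h. A group of 3 samples had LPS alone, and the other 3 also had PE-CUR at 2 mg/mL for the same 24 h, a curcumin-loaded Pickering emulsion by the title of the series. The labels name neither cells without LPS nor an emulsion without curcumin, so each difference below is between LPS plus PE-CUR and LPS, and parts due to curcumin and to its carrier cannot be told apart.

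The V-ATPase is a rotary machine. Its V1 sector sits on the cytosolic face and splits ATP, and the turning shaft drives protons through the V0 sector in the membrane. Several subunits exist as paralogues, and the paralogue of subunit a steers the pump to a given membrane. Pumping charges the membrane, so chloride entering through exchangers such as the product of Clcn7, and cations leaving through channels, let the lumen become acid. Macrophages use that acid to digest what they engulf, and osteoclasts, which can form from the same lineage, use the same parts to dissolve bone mineral.

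Among the 33 tested genes, 22 were lower and 2 were higher in LPS plus PE-CUR, while the remaining 9 did not pass (edgeR quasi-likelihood test, Benjamini-Hochberg adjusted p under 0.05 over all 13014 genes tested, 3 against 3 libraries). Over all genes tested, 63.4% passed in either direction, with 32.7% lower and 30.8% higher. The median log2 fold change was -0.40 for the 33 genes and -0.03 for all tested genes. Falls were spread over both sectors of the pump (7 of 9 tested genes in V1 and 7 of 9 in V0), both accessory proteins and 5 of 6 exchanger genes with Ostm1 counted among them, whereas of the 7 tested channel and transporter genes 1 fell and 1 rose. Most differences were under 2-fold. Ostm1 was the member lower by 2-fold or more and Atp6v1g2 the member higher by 2-fold or more, against 11.5% and 6.37% of all tested genes.

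Libraries held 28530750 to 35276533 counts, and the correlation within a group was 0.985 or more in log2 CPM (counts scaled to a common library total), against at most 0.955 between the groups. The labels do not state whether the replicates were separate cultures, and p-values thus rest on the spread of these samples, which may be technical. Macrophage markers were present throughout, with 8 of 8 counted in every library. Their summed level was 10111 to 10697 CPM in LPS and 8654 to 9446 CPM in LPS plus PE-CUR. Most of that sum came from Lyz2 alone, at 6092 to 6787 CPM in LPS and 4490.2 to 5184 CPM in LPS plus PE-CUR. Single markers differed in both directions, with Adgre1 at 76.9 to 90.5 and 24.8 to 30.9 CPM, Fcgr1 at 146 to 169 and 58.4 to 61.1 CPM, Mertk at 28 to 34 and 2 to 3 counts, Csf1r at 827 to 926 and 1115 to 1315 CPM and Cd14 at 1103 to 1258 and 1479.8 to 1661 CPM. The part of these differences in the results below was not tested. Hepatocyte transcripts, which a macrophage line should lack, summed to 43.0 to 72.3 CPM in the 3 LPS libraries and in LPS plus PE-CUR replicate 3, and to 0.154 and 0.0589 CPM in LPS plus PE-CUR replicates 1 and 2. Fibroblast markers summed to 12.5 CPM in LPS plus PE-CUR replicate 2 and to at most 2.32 CPM elsewhere. A further fit used the libraries that hold hepatocyte transcripts alone, 3 of LPS against replicate 3 of LPS plus PE-CUR. In that fit the lone sample is assumed to vary like the LPS group.

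RefSeq promoter sequences were found for 28 of the 35 genes, as 37 windows of the 250 bases before an annotated start (build GRCm38.p6, the assembly of mm10). They are shown because many of these genes are known targets of TFEB, TFE3 and MITF, factors that bind the palindrome CACGTG. The hexamer stood in 7 of 37 member windows (18.9%), in 7 genes, against 8.27% of 13212 windows of tested genes and 6.02% of 32851 windows in all. The longer form GTCACGTG, which contains it, stood in 10.8% of member windows and 3.27% of those of tested genes, and TCACGTGA, which also contains it, in 8.11% and 1.44%. The different motif TCATGTG stood in 10.8% and 1.96%. Both strands were searched. The annotated start of a window need not be the outer end of the gene. Windows printed for Atp6v1a, Clcn4 and Mcoln2 lie inside the gene bounds, and those for Atp6v0b and Clcn7 reach a few bases into them. Below are the 160 bases before that start, 5′ to 3′ along the gene, for the 7 genes with the hexamer, with CACGTG and TCATGTG in capitals.
Atp6v1a (chr16:44139260-44139419, - strand): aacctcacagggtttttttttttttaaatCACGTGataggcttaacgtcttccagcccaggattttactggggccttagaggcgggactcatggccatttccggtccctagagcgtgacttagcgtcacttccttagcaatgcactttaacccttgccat
Atp6v0b (chr4:117887330-117887489, - strand): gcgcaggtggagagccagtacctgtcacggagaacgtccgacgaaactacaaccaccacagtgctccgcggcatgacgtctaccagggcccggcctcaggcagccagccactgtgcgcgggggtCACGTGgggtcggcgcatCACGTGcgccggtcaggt
Clcn7 (chr17:25133231-25133390, + strand): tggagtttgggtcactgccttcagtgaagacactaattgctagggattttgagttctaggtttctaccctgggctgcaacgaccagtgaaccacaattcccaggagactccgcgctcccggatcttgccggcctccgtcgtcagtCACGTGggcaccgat
Clcn4 (chr7:7299558-7299717, - strand): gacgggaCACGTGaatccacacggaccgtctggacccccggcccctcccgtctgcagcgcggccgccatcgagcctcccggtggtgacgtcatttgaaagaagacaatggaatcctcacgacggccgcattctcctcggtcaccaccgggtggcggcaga
Clcn6 (chr4:148038814-148038973, - strand): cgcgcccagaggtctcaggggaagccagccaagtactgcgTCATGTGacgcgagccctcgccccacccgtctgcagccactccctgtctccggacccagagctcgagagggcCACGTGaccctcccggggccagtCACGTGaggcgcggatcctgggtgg
Mcoln1 (chr8:3500359-3500518, + strand): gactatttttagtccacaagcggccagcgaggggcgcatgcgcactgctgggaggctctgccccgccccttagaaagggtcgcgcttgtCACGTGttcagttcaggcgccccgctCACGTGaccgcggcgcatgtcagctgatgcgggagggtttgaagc
Mcoln2 (chr3:146150014-146150173, + strand): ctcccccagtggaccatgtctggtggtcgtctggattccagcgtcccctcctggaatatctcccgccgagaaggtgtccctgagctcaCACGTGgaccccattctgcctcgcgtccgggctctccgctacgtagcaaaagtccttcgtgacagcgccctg
In Clcn7 the hexamer began 15 bases before the start, in Atp6v0b 36 and 18 bases, in Clcn6 48 and 25 bases, in Mcoln1 71 and 45 bases, in Mcoln2 72 bases, in Atp6v1a 131 bases and in Clcn4 153 bases before it. Of these 7 genes Atp6v1a, Atp6v0b, Clcn7, Clcn4 and Mcoln1 were lower in LPS plus PE-CUR, Mcoln2 was higher and Clcn6 did not pass. Among all tested members 66.7% were lower, and a link between the hexamer and the calls was not tested. The match is of letters alone, and binding was not measured.

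The pump genes were abundant. Levels can be compared between genes per length, as FPKM (reads scaled by gene length and library total), and on that scale 14 members, all of the pump, lay above the level of 90% of tested genes. Highest over the 6 libraries were Atp6v1a with a mean of 190.4 FPKM, Atp6v1g1 with 188 FPKM and Atp6v0e with 185 FPKM. Lowest among those tested were Atp6v1g2 with 0.425 FPKM and Mcoln3 with 0.0977 FPKM. The other exchangers and channels stood between, from 26.7 FPKM for Mcoln1 to 1.63 FPKM for Tpcn2.

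**Figure D1:**
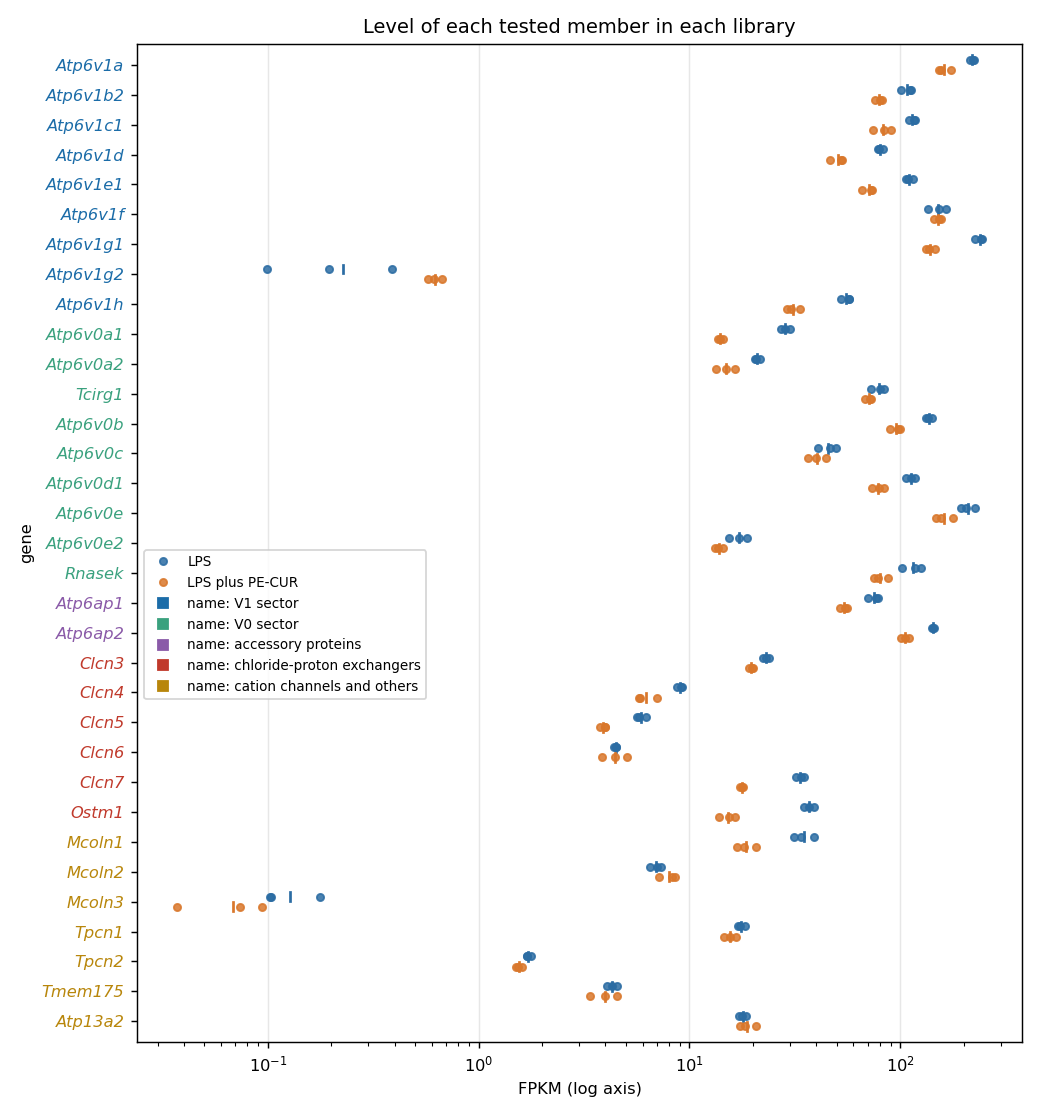
Level of each of the 33 tested genes in FPKM on a log axis, with a dot for each library (blue LPS, orange LPS plus PE-CUR) and a short bar at the mean of 3; names are coloured by role. Orange dots lie left of the blue ones in most pump and exchanger genes, as in Ostm1 with means of 37.0 and 15.2 FPKM.

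In the V1 sector, which splits ATP, 7 of the 9 tested genes fell. The steepest fall was in Atp6v1h, encoding subunit H, which is needed for the assembled pump to work (chromosome 1, 5082978 to 5163213, build mm10). It stood at 223, 246 and 242 CPM in LPS replicates 1 to 3 and at 126, 138 and 149.5 CPM in LPS plus PE-CUR replicates 1 to 3. Every LPS library lay above every library with PE-CUR, and the log2 fold change was -0.78 (SE 0.07, edgeR adjusted p = 3.93e-06). The groups did not overlap in 25 of the 33 tested genes, 24 of them with LPS plus PE-CUR below, against 69.0% of all tested genes and 35.7% in that direction. Libraries with less RNA of a gene per cell and fewer cells of a kind that holds it cannot be told apart in such bulk samples.

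Atp6v1g1, the widely used form of subunit G in the outer stalk (chromosome 4, 63544765 to 63550701), measured 243, 264 and 259 CPM under LPS alone and 144, 155 and 166 CPM with PE-CUR as well. Again the groups lay apart, with a log2 fold change of -0.72 (SE 0.07, edgeR adjusted p = 4.05e-06). Atp6v1d, the central shaft that turns (chromosome 12, 78842982 to 78862008), measured 123, 128 and 120.4 CPM against 72.8, 85.7 and 85.8 CPM, a log2 fold change of -0.60 (SE 0.07, edgeR adjusted p = 3.17e-05). Atp6v1e1, another stalk subunit, fell by 0.57 on the log2 scale. Smaller falls came from the core. Atp6v1a, which holds the catalytic sites, fell by 0.39 from 947 ± 19.9 to 722 ± 62.7 CPM (mean ± SD, n = 3), Atp6v1b2, its partner in the hexamer, by 0.39 and Atp6v1c1, a subunit that links the sectors and leaves when the pump comes apart, by 0.40.

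Atp6v1f, a small subunit of the central stalk, did not pass. Its 84.2, 103 and 94.6 CPM in LPS overlapped with the 91.6, 100.4 and 102 CPM of LPS plus PE-CUR, and its log2 fold change was 0.06 (SE 0.08, edgeR adjusted p = 0.532). The V1 sector held genes with clear falls beside a gene whose groups overlapped. Atp6v1g2, a form of subunit G best known from neurons, was the V1 gene that rose (chromosome 17, 35234931 to 35238767). It had 6, 12 and 26 counts in LPS and 41, 41 and 31 counts in LPS plus PE-CUR, which is 0.423 ± 0.272 and 1.20 ± 0.0718 CPM (edgeR log2 fold change 1.48, SE 0.43, adjusted p = 0.0109). The groups did not overlap, but the gene was near the floor, its exons overlap those of Nfkbil1 on the other strand, and whether counting used strand is not given in the sources used here. Its call ended when the libraries with hepatocyte transcripts were compared alone (edgeR log2 fold change 1.43, adjusted p = 0.0775), and without LPS replicate 3 the log2 fold change was 2.14. Neuron markers other than this gene had at most 9 counts in any library. Atp6v1c2, a paralogue of subunit C, had 0 to 2 counts per library.

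**Figure D2:**
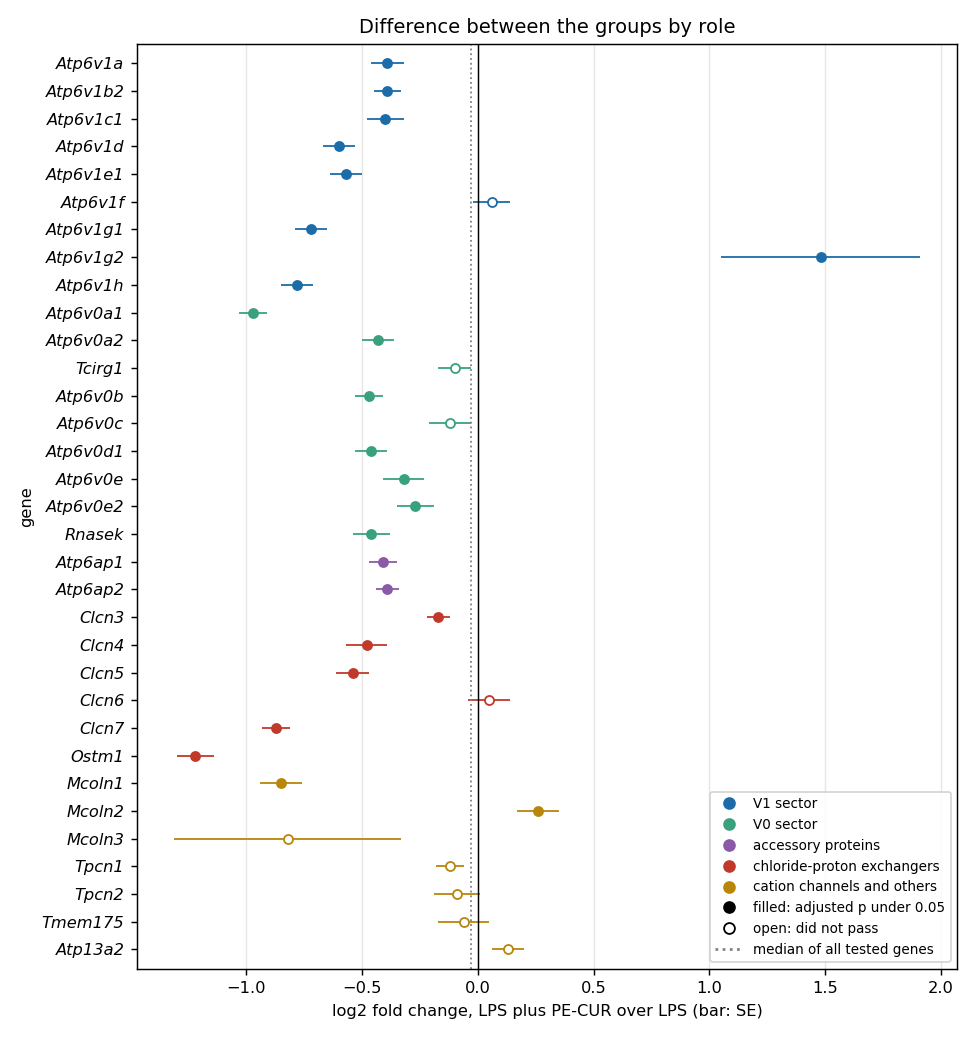
Log2 fold change (LPS plus PE-CUR over LPS) of the 33 tested genes by role, with bars of 1 SE; filled points passed at an edgeR adjusted p under 0.05, open points did not, and the dotted line marks the median of all tested genes, -0.03. Most filled points of the pump lie between -0.27 and -0.97, Ostm1 lies lowest at -1.22, and Atp6v1g2 stands alone on the right at 1.48 with a wide bar.

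In the V0 sector, the proton channel in the membrane, 7 of 9 tested genes fell and none rose, and the 3 forms of subunit a gave unequal values. Atp6v0a1 (chromosome 11, 101009422 to 101063719), found on endosomes and lysosomes of many cells, stood at 153, 169.8 and 160.4 CPM without PE-CUR and at 78.3, 82.8 and 86.0 CPM with PE-CUR. The highest library with PE-CUR was far below the lowest LPS library (edgeR log2 fold change -0.97, SE 0.06, adjusted p = 4.35e-07). Atp6v0a2 (chromosome 5, 124629052 to 124724455), a form of the Golgi and early endosomes, went from 108, 109 and 113 CPM to 86.9, 74.6 and 82.4 CPM (edgeR log2 fold change -0.43, SE 0.07, adjusted p = 1.91e-04). Tcirg1 (chromosome 19, 3896050 to 3907133) encodes the a3 form, which carries the pump to late lysosomes and to the bone-facing membrane of osteoclasts. It measured 279.8, 323 and 307 CPM with LPS alone and 263, 293 and 294 CPM with PE-CUR added. These ranges overlapped and Tcirg1 did not pass (edgeR log2 fold change -0.10, SE 0.07, adjusted p = 0.246).

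As a share of the summed FPKM of the 3 forms, Tcirg1 made up 60.5%, 62.3% and 61.6% in LPS and 69.3%, 72.6% and 71.2% in LPS plus PE-CUR. Its share was higher by 9.57 percentage points and did not overlap between groups. Atp6v0a1 went from 22.2 ± 0.311% to 14.0 ± 0.111%. Among 6 paralogue families compared in this way, by the share of the most abundant form, the exact two-sided permutation p for Tcirg1 was 0.10, the smallest that 3 against 3 libraries can give, and 0.15 after Benjamini-Hochberg adjustment over the 6.

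**Figure D3:**
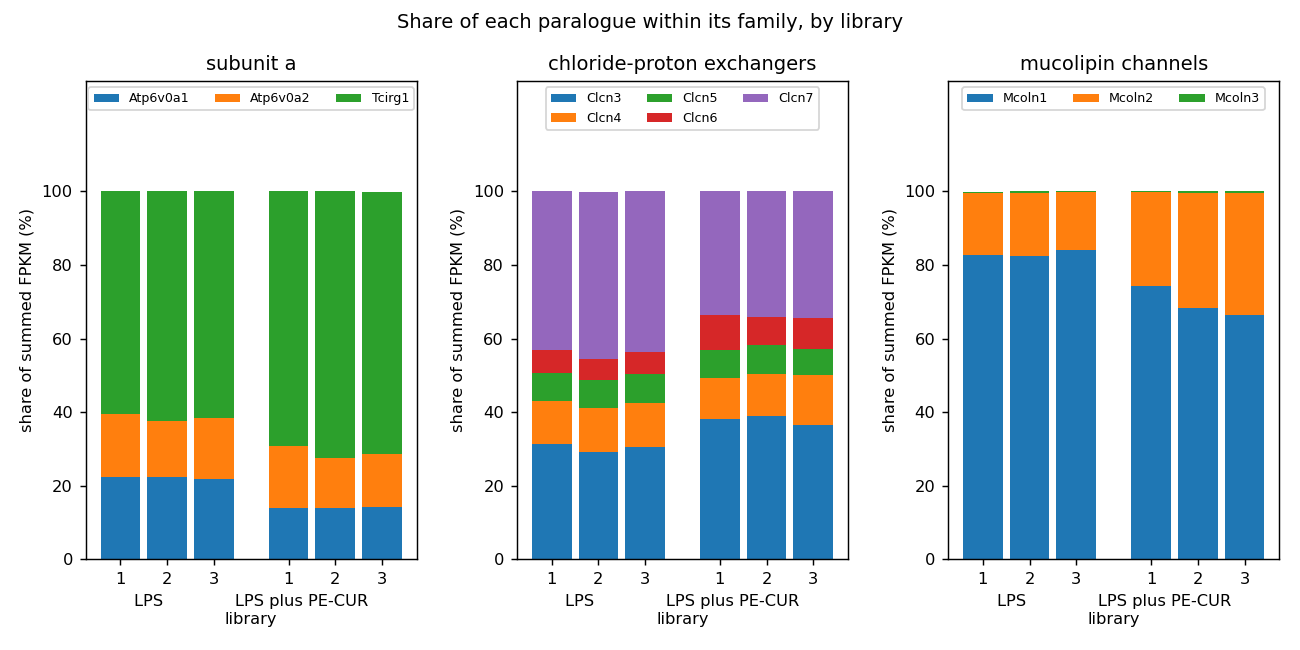
Share of each paralogue in the summed FPKM of its family, in percent, with a stacked bar for each library (3 of LPS on the left, 3 of LPS plus PE-CUR on the right of each panel). Tcirg1 widens from a mean of 61.5% to 71.0%, Clcn7 narrows from 44.2% to 34.1% and Mcoln1 from 83.1% to 69.6%.

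The rotor that carries the protons is a ring of subunit c with a single copy of its relative encoded by Atp6v0b. Atp6v0b (chromosome 4, 117884330 to 117887333), whose promoter with 2 hexamers is printed above, measured 196, 211 and 199.8 CPM under LPS alone and 145, 139 and 155 CPM with PE-CUR as well, with no overlap (edgeR log2 fold change -0.47, SE 0.06, adjusted p = 5.32e-05). Atp6v0c, the ring subunit itself, did not pass. It stood at 60.7, 74.6 and 68.9 CPM without PE-CUR and at 60.5, 57.9 and 70.0 CPM with PE-CUR, so the groups overlapped (edgeR log2 fold change -0.12, adjusted p = 0.296). Processed copies of Atp6v0c are annotated in the mouse genome, and how reads shared with them were counted is not given in the sources used here. Atp6v0d1, which couples the ring to the shaft, fell by 0.46 on the log2 scale from 182 ± 8.22 to 132 ± 8.83 CPM, and Rnasek (chromosome 11, 70238123 to 70239852), a small V0 subunit, fell by 0.46 from 62.3, 77.1 and 71.1 to 54.1, 48.4 and 50.5 CPM.

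Subunit e, a small membrane protein, has a pair of genes. Atp6v0e stood at 153, 179 and 159.9 CPM with LPS alone and at 117, 130.2 and 146 CPM with PE-CUR added (edgeR log2 fold change -0.32, adjusted p = 0.00855). That call ended without LPS replicate 2 (edgeR adjusted p = 0.0653) and among the libraries with hepatocyte transcripts alone (edgeR log2 fold change -0.11, adjusted p = 0.337). Atp6v0e2 stood at 28.0, 34.0 and 30.8 CPM and at 26.2, 25.9 and 25.1 CPM (edgeR log2 fold change -0.27, adjusted p = 0.0168). It lost its call without LPS replicate 2 or 3, or without LPS plus PE-CUR replicate 2 or 3 (edgeR adjusted p from 0.0690 to 0.155), and its log2 fold change was -0.15 without LPS replicate 2. Atp6v0e made up 92.4 ± 0.180% of the pair's FPKM in LPS and 92.1 ± 0.947% in LPS plus PE-CUR (exact permutation p = 0.70, 0.84 adjusted over the 6 families).

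The genes of both accessory proteins fell. Atp6ap1, which helps to build the pump in the endoplasmic reticulum (X chromosome, 74297097 to 74304721), went from 262, 292 and 283 CPM to 205, 204 and 219 CPM (edgeR log2 fold change -0.41, SE 0.06, adjusted p = 1.20e-04). Atp6ap2, also called the prorenin receptor (X chromosome, 12587759 to 12617051), went from 330.0, 333 and 333 CPM to 246, 247 and 268 CPM (edgeR log2 fold change -0.39, SE 0.05, adjusted p = 9.41e-05). In neither did the groups overlap. Summed over genes, FPKM of the V1 sector was 1077 ± 47.0 in LPS and 767 ± 42.2 in LPS plus PE-CUR, that of the V0 sector 765 ± 51.2 and 569.6 ± 28.2, and that of the accessory proteins 218 ± 5.08 and 159 ± 6.60.

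Atp6v0d2, the paralogue of Atp6v0d1 linked to fusion of osteoclast precursors, lies outside the set and had 633, 719 and 1154 counts in LPS against 8, 26 and 30 counts in LPS plus PE-CUR. The osteoclast marker list, of which it is part, had 5 of 7 genes counted in every library and summed to 137 to 164 CPM under LPS alone and 58.6 to 74.9 CPM with PE-CUR as well, most of it from Dcstamp, with Ctsk at 7 to 17 counts per library. Members of that list did not move alike: Mmp9 had 19, 13 and 20 counts in LPS and 90, 95 and 66 counts with PE-CUR, and Acp5 stood at 11.1 to 12.6 CPM and at 9.19 to 10.6 CPM. Whether osteoclast-like cells had a part in the pump values was not tested.

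Among the exchangers the gene pair best known from osteoclasts and lysosomes showed the steepest falls. Ostm1 (chromosome 10, 42678916 to 42702462) encodes the partner that stabilises the Clcn7 protein, and loss of either gives osteopetrosis, a disease of too dense bone. Ostm1 measured 103, 110.0 and 114 CPM without PE-CUR and 41.2, 48.4 and 50.8 CPM with PE-CUR. All 3 libraries with PE-CUR lay far below the lowest LPS library. Its log2 fold change was -1.22 (SE 0.08, edgeR adjusted p = 5.11e-07). Clcn7 (chromosome 17, 25133378 to 25162103), which exchanges chloride for protons in lysosomes, measured 132, 145 and 139 CPM with LPS alone and 73.8, 75.8 and 78.1 CPM with PE-CUR added. The log2 fold change of Clcn7 was -0.87 (SE 0.06, edgeR adjusted p = 5.76e-07), and the 3 libraries with PE-CUR lay close together.

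The endosomal exchangers fell less or did not pass. Clcn5 (X chromosome, 7153810 to 7319358), whose loss in humans causes a kidney tubule disorder, went from 52.4, 53.7 and 57.7 CPM to 37.5, 38.9 and 36.5 CPM (edgeR log2 fold change -0.54, SE 0.07, adjusted p = 4.35e-05). Clcn4 (chromosome 7, 7282309 to 7300916) went from 51.0, 53.9 and 53.5 CPM to 34.1, 36.2 and 43.2 CPM (edgeR log2 fold change -0.48, adjusted p = 6.55e-04). Replicate 3 with PE-CUR was nearest to the LPS libraries, and with the libraries that hold hepatocyte transcripts alone the value for Clcn4 was -0.23 (edgeR adjusted p = 0.0516).

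Clcn3 (chromosome 8, 60910389 to 60983317), an exchanger of endosomes and synaptic vesicles, measured 242, 235 and 247 CPM under LPS alone and 213, 219 and 211 CPM with PE-CUR as well. Its small difference, -0.17 on the log2 scale (edgeR adjusted p = 0.0132), did not pass in any fit that left out a library other than LPS replicate 2 (edgeR adjusted p from 0.0583 to 0.147). Clcn6 (chromosome 4, 148004259 to 148038813), a late endosomal exchanger best known from neurons, stood at 23.0, 22.4 and 22.7 CPM without PE-CUR and 26.0, 20.7 and 23.7 CPM with PE-CUR, with overlap and no call (edgeR log2 fold change 0.05, adjusted p = 0.671).

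Of the summed FPKM of the 5 exchanger genes, Clcn7 held 43.2%, 45.6% and 43.8% in LPS and 33.7%, 34.2% and 34.4% in LPS plus PE-CUR, a share lower by 10.1 percentage points (PE-CUR minus LPS -10.1, exact permutation p = 0.10, 0.15 adjusted over the 6 families). Clcn3 went the other way within the family, from 30.3 ± 1.09% to 37.9 ± 1.18%. By FPKM it was the most abundant exchanger gene in each library with PE-CUR, and Clcn7 was in each LPS library. That order rests on scaling by gene length, since in CPM Clcn3 was above Clcn7 in every library. Together with Ostm1 the 6 genes summed to 113 ± 4.0 FPKM in LPS and 67.2 ± 1.40 FPKM in LPS plus PE-CUR.

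The cation channels moved unequally. Mcoln1 (chromosome 8, 3500519 to 3515232) encodes the main calcium-releasing channel of lysosomes, whose loss in humans causes mucolipidosis type IV. It measured 62.1, 67.0 and 76.5 CPM with LPS alone and 41.1, 37.7 and 34.9 CPM with PE-CUR added, without overlap (edgeR log2 fold change -0.85, SE 0.09, adjusted p = 1.18e-05). Mcoln2 (chromosome 3, 146149796 to 146195514), a paralogue known to be induced in activated macrophages, measured 28.9, 31.2 and 32.2 CPM under LPS alone and 32.0, 38.8 and 39.6 CPM with PE-CUR as well. Replicate 1 with PE-CUR lay within the LPS range. Of all members that passed, Mcoln2 was nearest to the threshold (edgeR log2 fold change 0.26, SE 0.09, adjusted p = 0.0292), and it did not pass without LPS replicate 1 (edgeR adjusted p = 0.0642) or without LPS plus PE-CUR replicate 3 (edgeR adjusted p = 0.0739). It also failed with libraries scaled by their totals alone (edgeR log2 fold change 0.20, adjusted p = 0.0655).

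Mcoln3 had 11, 19 and 12 counts in LPS and 4, 11 and 7 counts with PE-CUR, and its groups were not called different (edgeR adjusted p = 0.167). Within the family, the share of Mcoln1 in summed FPKM was 82.6%, 82.5% and 84.1% in LPS and 74.2%, 68.4% and 66.3% in LPS plus PE-CUR, and that of Mcoln2 went from 16.6 ± 0.791% to 30.1 ± 4.0%. The change for Mcoln1 was -13.4 percentage points (exact permutation p = 0.10, 0.15 adjusted over the 6 families).

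Neither of the 2-pore channel genes, whose products pass sodium or calcium out of endosomes and lysosomes, passed. Tpcn1 (chromosome 5, 120534157 to 120588678) was the closest of the genes that failed, with 81.9, 87.7 and 82.6 CPM without PE-CUR and 80.0, 73.5 and 78.1 CPM with PE-CUR (edgeR log2 fold change -0.12, SE 0.06, adjusted p = 0.103). The groups lay apart by a small margin, and Tpcn1 passed as lower with library totals alone (edgeR log2 fold change -0.18, adjusted p = 0.0383). It also passed as lower in edgeR with a filter at a mean of 1 CPM, and in limma on log2 of FPKM plus 1 or plus 0.1 (adjusted p up to 0.0462). Tpcn2 stood at 11.7, 11.7 and 12.2 CPM and at 10.5, 11.8 and 11.2 CPM (edgeR adjusted p = 0.445). Tpcn1 made up 91.1 ± 0.417% of the pair's FPKM in LPS and 90.9 ± 0.819% in LPS plus PE-CUR.

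Tmem175, a proton and potassium channel of lysosomes linked to Parkinson's disease, stood at 16.8 ± 0.956 and 16.0 ± 2.08 CPM, with no call (edgeR adjusted p = 0.630). Its exons overlap those of Dgkq on the other strand. Atp13a2, a lysosomal exporter of polyamines, stood at 116 ± 5.35 CPM with LPS alone and 126 ± 7.83 CPM with PE-CUR added and did not pass either (edgeR log2 fold change 0.13, adjusted p = 0.115), but it passed as higher without LPS replicate 2 (edgeR adjusted p = 0.0395) or LPS plus PE-CUR replicate 2 (edgeR adjusted p = 0.0295). Atp13a2 also passed as higher with no filter on counts. Other members whose exons overlap another annotated gene were Atp6v1e1 (Slc25a18, at most 2 counts per library), Atp6v1h (Rgs20, 72 to 356 counts), Atp6v0b (Gm12841, at most 50 counts), the untested Atp6v1c2 (Pdia6, 10755 to 13690 counts) and Atp6v1fnb (Kcp, 4 to 45 counts), and Atp6v0a2, Clcn4, Ostm1 and Rnasek, whose overlapping transcripts were not analysed here.

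**Figure D4:**
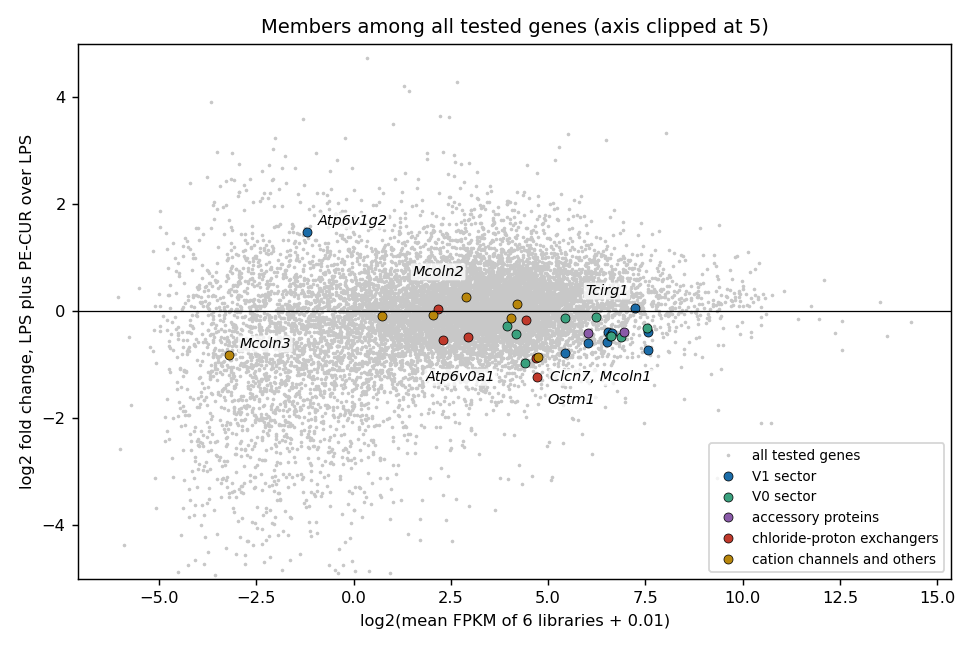
Log2 fold change (LPS plus PE-CUR over LPS) against log2 of the mean FPKM plus 0.01 for all 13014 tested genes (grey; 35 lie outside the plotted range) with the 33 tested members coloured by role. Most pump genes lie at the right, at high level and below 0, within the spread of other genes, and Atp6v1g2 lies apart from them at low level and above 0.

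Genes that assemble or steer the pump were divided. Of 11 tested assembly factors and regulators, 6 fell, 2 rose and 3 did not pass (median log2 fold change -0.27). In either direction 72.7% passed and 54.5% were lower, against 63.4% and 32.7% of all tested genes. The rabconnectin genes Wdr7 and Dmxl2, which help V1 to rejoin V0, fell from 104 ± 5.38 to 70.1 ± 7.82 CPM and from 93.8 ± 13.7 to 58.8 ± 7.69 CPM, and Ncoa7, a regulator that binds V1, fell from 44.9 ± 2.10 to 35.0 ± 1.03 CPM. Dmxl1, the paralogue of Dmxl2, did not pass (edgeR log2 fold change 0.42, adjusted p = 0.319). Of the factors that build V0 in the endoplasmic reticulum, Ccdc115 rose from 45.7 ± 0.553 to 61.8 ± 1.67 CPM and Vma21 from 54.5 ± 2.11 to 70.7 ± 10.0 CPM. Tmem199, the partner of Ccdc115, did not pass (edgeR log2 fold change 0.09, adjusted p = 0.209), and Atp6ap1, described above, fell.

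The pump also anchors the complexes that report amino acids to the growth kinase mTORC1. Of 15 tested genes of that machinery, 9 fell, 1 rose and 5 did not pass (median -0.32). The share that passed in either direction, 66.7%, was near the 63.4% of all tested genes. The share that was lower was 60.0%, against 32.7%. Fnip2, a folliculin partner, fell from 489 ± 3.31 to 314 ± 24.5 CPM, and the small GTPase genes Rragc and Rraga fell from 205 ± 4.64 to 145 ± 12.8 and from 119 ± 6.97 to 88.1 ± 4.70 CPM. Mtor, the kinase itself, rose from 62.3 ± 3.80 to 91.7 ± 6.98 CPM.

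Another 20 tested genes serve ion transport of endosomes and lysosomes, including the kinase complex whose lipid opens mucolipin and TPC channels. Of these 20 genes, 11 fell, 4 rose and 5 did not pass (median -0.23). Lower genes made up 55.0% of this list, against 32.7% of all tested genes. In either direction 63.4% of all tested genes passed. Slc11a1, which moves divalent metals across the phagosome membrane, fell from 133, 155 and 151 CPM to 69.3, 70.1 and 73.3 CPM, and P2rx4, an ATP-gated channel, from 38.5, 47.6 and 49.7 CPM to 22.8, 21.8 and 23.2 CPM. The zinc transporter gene Slc30a4 fell from 221 ± 23.4 to 135 ± 4.29 CPM. Slc9a8, a sodium-proton exchanger, rose from 32.3 ± 0.572 to 50.4 ± 3.13 CPM and Slc30a2, another zinc transporter, from 0.159 ± 0.0421 to 0.884 ± 0.277 CPM. Slc30a2 was near the floor, with 6, 6 and 4 counts in LPS and 31, 38 and 16 counts in LPS plus PE-CUR.

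The set most like the pump, 31 lysosomal hydrolases and membrane proteins, had 23 lower, 2 higher and 6 that did not pass (median -0.45). Of this set 74.2% was lower, against 80.0% of the 20 tested V1, V0 and accessory genes. For all tested members, exchangers and channels included, the share was 66.7%, and for all tested genes 32.7%. A test of these differences was not made. The membrane protein genes Scarb2, Laptm4a and Npc1 had the smallest p among those that fell, with a change from 202 ± 10.7 to 95.6 ± 7.02 CPM for Scarb2, while the protease gene Ctss rose from 403 ± 22.0 to 521 ± 32.5 CPM and Gusb from 480.0 ± 33.8 to 547 ± 37.2 CPM. The 3 tested transcription factor genes of lysosomal genes did not pass, also at an unadjusted edgeR p under 0.05, the lowest being 0.11 for Tfeb. Tfeb stood at 4.29 ± 0.388 and 5.29 ± 1.01 CPM, Tfe3 at 76.5 ± 2.61 and 78.1 ± 7.38 CPM and Mitf at 53.0 ± 3.96 and 53.8 ± 7.14 CPM (edgeR adjusted p from 0.151 to 0.847). Tfec had 10, 12 and 10 counts in LPS and 0, 5 and 3 counts in LPS plus PE-CUR. Its groups did not overlap, but it was near the floor and was not tested. These are levels of RNA, and the activity of the factors was not measured.

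**Figure D5:**
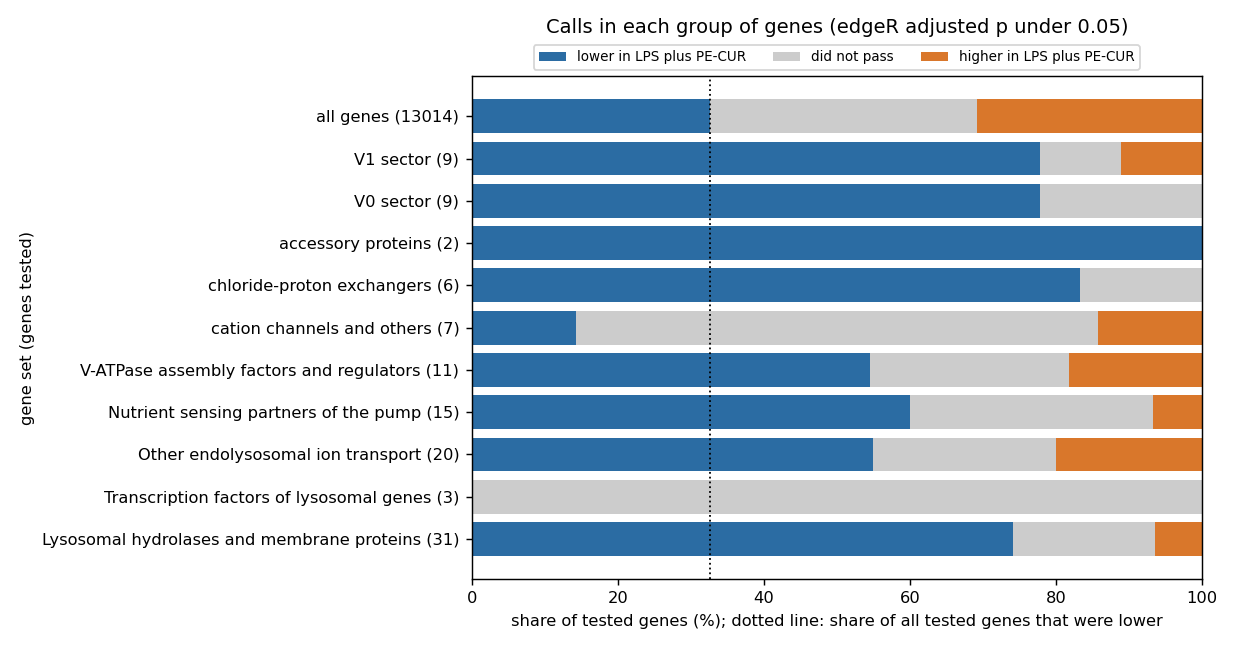
Share of tested genes, in percent, that were lower (blue), did not pass (grey) or were higher (orange) in LPS plus PE-CUR by edgeR adjusted p under 0.05, for all genes, for each role among the members and for 5 lists of other lysosomal genes; the number tested stands in brackets. The dotted line marks the 32.7% of all tested genes that were lower. V1, V0, accessory and exchanger genes reach beyond it, and cation channels and others do not. The lists of other lysosomal genes reach beyond it too, except the transcription factors.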

How the data were processed

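The deposited table holds raw read counts per gene symbol for 6 libraries, made by the authors, and FPKM values that the authors computed from those counts. Per the submitters' processing notes the tools were fastp, HTSeq, SAMtools and DESeq2 on build mm10. For the aligner and the strand setting of the counting, nothing was given in the sources used here. FPKM equalled the count over gene length and library total in 100% of 105337 values above 0, within a relative tolerance of 0.0001. Libraries held 28530750 to 35276533 counts.

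Counts were filtered with filterByExpr, scaled by TMM factors (0.964 to 1.03) and tested with edgeR 4.0.16 in R 4.3.3 by its quasi-likelihood test, with Benjamini-Hochberg adjustment over all 13014 tested genes and a threshold of 0.05. CPM values are TMM-scaled, and SE is the absolute log2 fold change over the square root of F. Shares within paralogue families came from FPKM, compared by exact two-sided permutation over libraries. The procedure was also run on simulated data in which a small part of the genes was changed, as many up as down. In the real data 63.4% of tested genes passed, so that run cannot check the scaling or the rate of false calls here. Alternatives used DESeq2 1.42.0, limma 3.58.1 (voom, or log2 of FPKM plus 1 or 0.1), other scalings and filters, a replicate block, and each library left out.

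The members, the lists of other genes and the comparison of libraries with hepatocyte transcripts were chosen with earlier results of these data known. Values per library are given for up to 3 called members per role and direction with the largest change, for paralogue families and for members nearest the threshold, and other members were named where space allowed. From other lists up to 3 genes in the majority direction and 2 in the other, by p, are named, and Dmxl1, Tmem199 and the single marker genes were added after their values were seen.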

Additional observations from a re-analysis of the deposited data

How the results depend on the processing

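Of the 24 members that passed, 18, all lower, kept their direction and their call under every alternative run. The number of members called lower ranged from 18 to 23 and was 20 to 21 with a library left out. The number called higher was 2, but 1 with libraries scaled by their totals, in each of the 3 limma fits on log2 FPKM and among the libraries with hepatocyte transcripts (a comparison chosen after seeing the data), and 0 with a filter at a mean of 1 CPM, which leaves out Atp6v1g2. With no filter on counts Atp13a2 passed as higher beside these 2. With a library left out the number called higher was 1 to 3. Genes of the transcription factor list called lower went from 0 to 1 with no filter on counts or on FPKM, and were 0 to 1 with a library left out. Hydrolase and membrane genes called higher went from 2 to 1 with library totals, the 1 CPM filter, the 3 limma fits on FPKM and the replicate block, and were 1 to 2 with a library left out. The 4 genes below were not called in the fits where they changed sign. The log2 fold change of Clcn6 was -0.01 with library totals, in the 3 limma fits on FPKM and without LPS plus PE-CUR replicate 1, and -0.01 to 0.17 with a library left out. That of Tmem175 was 0.02 without LPS replicate 2, 0.08 without LPS plus PE-CUR replicate 2 (-0.13 to 0.08 with a library left out) and 0.01 among the libraries with hepatocyte transcripts, where Tcirg1 was at 0.01 and Atp6v0c at 0.09. With a library left out, the difference in share was 8.80 to 10.4 percentage points for Tcirg1, -10.6 to -9.40 for Clcn7, -15.7 to -11.8 for Mcoln1, -0.385 to -0.324 for Atp6v1g1, -0.829 to 0.117 for Atp6v0e and -0.566 to 0.249 for Tpcn1, with a change of sign in the last pair (0.117 for Atp6v0e without LPS plus PE-CUR replicate 1, and 0.0483 and 0.249 for Tpcn1 without LPS replicate 2 or LPS plus PE-CUR replicate 2). Apart from fewer libraries or genes by construction, the cause was not tested.

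Replicate numbers did not pair the samples: deviations from the group mean correlated at -0.102, -0.178 and -0.048 for the numbers 1, 2 and 3, and 0 of 6 libraries correlated best with their own number. With the replicate block 22 members were called lower and 2 higher, and over all genes 3953 were lower and 3708 higher. Genes with a few counts per library, such as Mcoln3, are limited by depth.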
